A study of Bos taurus with 6 samples.

Results

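PRSS35, ANPEP and a set of matrix proteases and their inhibitors were followed in primary myoblasts of cattle, which are precursors of muscle and form fibers by fusion. The set lists 9 genes (PRSS35, ANPEP, MMP2, MMP14, TIMP1, TIMP2, TIMP3, ADAMTS1 and ADAMTS5). A gene could be followed where the paper's sheet of differentially expressed mRNAs pairs its Ensembl identifier with a name, which left 5 genes, PRSS35, ANPEP, TIMP1, TIMP2 and ADAMTS5, of the 26332 mRNAs in the deposited table. MMP2, MMP14, TIMP3 and ADAMTS1 have no name in the copy used here and were not analysed here. That copy is shortened and lists the mRNAs with the smallest p-values first, so a missing name does not show that a gene was unchanged. All 5 genes passed the minimum mean of 10 normalized reads. Because a name comes with a call in the comparison of resveratrol with control, that comparison chose the members, and it is given for them as a description without a test.

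The cells came from fetal longissimus dorsi muscle and were kept in differentiation medium for 4 days. The RSV group consisted of 3 cultures that received 20 μM resveratrol, a plant polyphenol, dissolved in DMSO. The control group consisted of 3 cultures that received DMSO alone (DMSO group). The 3 cultures of a group came from independent experiments. How many fetuses the cultures came from is not given in the sources used here.

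The deposited table holds 1 mean per group, so the reads of single libraries were recovered as the whole numbers that give each mean. A library is named here by its group and its size factor, the divisor that the authors used to even out sequencing depth. The RSV libraries had size factors of 1.09, 1.08 and 1.05 and the DMSO libraries 0.964, 0.960 and 0.886, and values of single libraries are given in this order throughout. The recovered reads summed to between 14123970 and 16603990 per library over 20369 mRNAs. Limma voom, a linear model on log2 reads weighted by their precision, called 34.4% of 14937 mRNAs at a Benjamini-Hochberg adjusted p under 0.05, with 17.7% lower and 16.7% higher in the RSV group. Library RSV 1.05 stood apart from the other RSV libraries for many mRNAs, and values are therefore also given without it. Because it was picked for standing apart, a smaller standard error without it does not show a more precise estimate.

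Proteases outside the cell cut collagens, proteoglycans and growth factors, and their activity is held in check by inhibitors. In developing muscle, myoblasts need such cutting to migrate and to fuse, and the matrix around new fibers is rebuilt by it. The TIMPs block matrix metalloproteinases and several ADAM and ADAMTS enzymes by occupying the zinc ion of the active site. The TIMPs are not interchangeable, since TIMP2 also helps MMP14 to activate the precursor of MMP2 at the cell surface, a role that TIMP1 does not share. No activity or protein was measured here, and all values are mRNA reads.

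PRSS35 encodes a secreted protein of the trypsin-like serine protease family, which is classed as an inactive member because its active site departs from that of trypsin. Its mRNA (ENSBTAG00000026708) was much less abundant in the RSV group than in the DMSO group. PRSS35 had 1143, 1009 and 761 normalized reads under RSV and 3874, 3589 and 3690.4 under DMSO. Each RSV library lay below every DMSO library, and library RSV 1.05 was the lowest of all. The group means were 971 ± 194 (SD, n = 3) in RSV and 3718 ± 144 (SD, n = 3) in DMSO. The difference gave a log2 fold change of −1.95 with a standard error of 0.13, a level 3.88-fold lower in RSV. Without library RSV 1.05 the log2 fold change was −1.79 with a standard error of 0.06. Counted from the largest decrease, PRSS35 held rank 98 of 14937 mRNAs.

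ANPEP encodes aminopeptidase N, also known as CD13, a zinc enzyme of the cell surface that removes single amino acids from the start of peptides. ANPEP (ENSBTAG00000016881) had the largest decrease of the members. It had 353, 321 and 199 normalized reads under RSV and 1270.1, 1378 and 1366 under DMSO. As for PRSS35, the groups did not overlap and library RSV 1.05 was the lowest. The group means were 291 ± 81.2 (SD, n = 3) in RSV and 1338 ± 59.1 (SD, n = 3) in DMSO. The log2 fold change of ANPEP was −2.24 with a standard error of 0.17, a level 4.71-fold lower in RSV, and its rank was 61 of 14937 from the largest decrease. Without library RSV 1.05 it was −1.99 with a standard error of 0.08. The fewest recovered reads of ANPEP in a library were 210, for which counting error alone would be 6.9%.

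ADAMTS5 encodes an aggrecanase, a secreted metalloproteinase that cuts the proteoglycans aggrecan and versican. ADAMTS5 (ENSBTAG00000000648) had 475, 488 and 304 normalized reads under RSV and 938, 828 and 899 under DMSO. Every DMSO value exceeded every RSV value, and the lowest was once more that of library RSV 1.05. The group means were 422 ± 103 (SD, n = 3) in RSV and 889 ± 55.6 (SD, n = 3) in DMSO. Its log2 fold change was −1.10 with a standard error of 0.16, a level 2.14-fold lower in RSV. Without that RSV library the decrease of ADAMTS5 was smaller, with a log2 fold change of −0.88 and a standard error of 0.07.

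**Figure D1:**
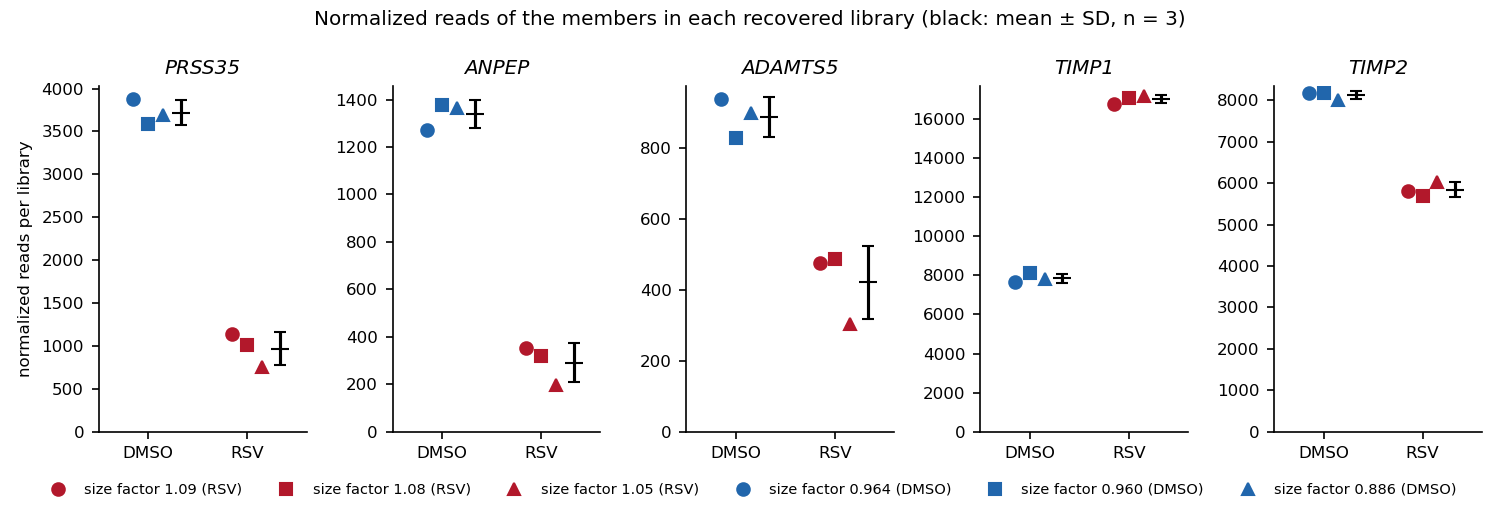
Normalized reads (vertical axes, each starting at 0) of PRSS35, ANPEP, ADAMTS5, TIMP1 and TIMP2 in the 3 DMSO (blue) and 3 RSV libraries (red), with 1 symbol per library and the group mean ± SD in black. The RSV libraries lie below all DMSO libraries for 4 genes and above them for TIMP1, and the red triangle, which is library RSV 1.05, is the lowest for PRSS35, ANPEP and ADAMTS5.

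The inhibitors moved in opposite directions. TIMP1 (ENSBTAG00000005043) was the only member with more reads in RSV. It had 16779, 17082 and 17153 normalized reads under RSV and 7649.8, 8102 and 7809.6 under DMSO. The RSV libraries were all above the DMSO libraries and close to each other, with means of 17004 ± 199 (SD, n = 3) in RSV and 7854 ± 229 (SD, n = 3) in DMSO. The log2 fold change of TIMP1 was 1.11 with a standard error of 0.05, a level 2.17-fold higher in RSV. It was also 1.11 without library RSV 1.05. Counted from the largest increase, TIMP1 held rank 567 of 14937 mRNAs.

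TIMP2 (ENSBTAG00000010899) had 5813, 5689 and 6029.6 normalized reads under RSV and 8174, 8175 and 8014 under DMSO. Here too every DMSO value exceeded every RSV value, although TIMP2 had the smallest difference of the members. Its means were 5844 ± 172 (SD, n = 3) in RSV and 8121 ± 92.6 (SD, n = 3) in DMSO, a log2 fold change of −0.48 with a standard error of 0.05. Without library RSV 1.05 the log2 fold change was −0.50. The RSV library that was lowest for PRSS35, ANPEP and ADAMTS5 was the highest RSV library for both TIMP1 and TIMP2.

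The ratio of TIMP1 to TIMP2 within a library does not depend on how libraries are scaled. There were 2.89, 3.003 and 2.85 TIMP1 reads per TIMP2 read under RSV and 0.936, 0.991 and 0.975 under DMSO. The balance of the mRNAs thus stood at 2.91 ± 0.0818 (SD, n = 3) in RSV and 0.967 ± 0.0283 (SD, n = 3) in DMSO, a 3.01-fold difference between the group means. The ratio restates the differences of TIMP1 and TIMP2 given above, on which both genes were chosen, and is no separate result. Transcript length was not accounted for, so the ratio compares libraries and not the abundance of the transcripts.

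The groups did not overlap for 5 of 5 members, 4 of them lower and 1 higher in RSV. Over all 14937 mRNAs, the groups did not overlap for 26.7% with lower and 26.9% with higher values in RSV. They did not overlap for any of the 1824 named mRNAs (1023 lower and 801 higher in RSV). The members were chosen on this comparison, so nothing is read from their count.

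PRSS35, ANPEP and ADAMTS5 varied more among the RSV than among the DMSO libraries. The coefficient of variation (SD as a percentage of the mean) was 19.95% in RSV and 3.88% in DMSO for PRSS35. For ANPEP it was 27.9% in RSV and 4.42% in DMSO, and for ADAMTS5 24.4% in RSV and 6.25% in DMSO. The median over all mRNAs tested was 10% in RSV and 6.03% in DMSO, and RSV had the larger value for 68.5% of them. Over the 1824 named mRNAs the medians were 11.2% and 4.87%, and RSV had the larger value for 78%. TIMP1 and TIMP2 varied little in either group, between 1.14% and 2.95%. Their reads were partly recovered under the assumption that each library lay within a set distance of the group mean, at the narrowest 10% for TIMP1 in RSV and 50% for TIMP2 in DMSO. Their small spread is bounded in part by that assumption, although no library departed from its group mean by more than 3.16% in these searches.

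Within the groups, PRSS35, ANPEP and ADAMTS5 deviated from their group means in the same libraries. Deviations from the group means were correlated over the 6 libraries. The Pearson correlation was 0.94 for PRSS35 with ANPEP, 0.94 for PRSS35 with ADAMTS5 and 0.92 for ANPEP with ADAMTS5. Given the DMSO values, these correlations do not describe a pattern shared by both groups. TIMP2 deviated the other way, with −0.70 to PRSS35, −0.82 to ANPEP and −0.87 to ADAMTS5. The values of TIMP1 were nearer to 0, at −0.47 to PRSS35, −0.17 to ANPEP, −0.43 to ADAMTS5 and 0.17 to TIMP2. The libraries share their depth and treatment across genes, and library RSV 1.05 lay furthest from its group mean for PRSS35, ANPEP and ADAMTS5. These are descriptions of 6 libraries.

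The named genes with the most similar pattern were looked up among 1218 named mRNAs whose mean reached 405 normalized reads, the median of the mRNAs tested, by the Pearson correlation of log2(normalized reads + 1) over the 6 libraries. These correlations include the group difference, on which every named mRNA was chosen, and 80 named mRNAs had a correlation above 0.99 with PRSS35 and 120 with ANPEP. P4HA3, a subunit of the collagen prolyl hydroxylase, was the most similar to PRSS35 (r = 0.999), followed by ZMYM3 and FAP. P4HA3 had 344, 288 and 241 normalized reads under RSV and 1126, 1064 and 1076 under DMSO, so it shared the size of the difference as well, with a log2 fold change of −1.92 (standard error 0.11). SERPINF1, a secreted member of the serpin family, was the most similar to ANPEP (r = 0.9998), followed by PODN and FAP. SERPINF1 had a smaller difference, with a log2 fold change of −0.63 (standard error 0.07), and its reads were recovered within 50% (RSV) and 20% (DMSO) of the group mean. PODN, a small leucine-rich proteoglycan of the matrix, had 1076, 997 and 759.9 normalized reads under RSV and 2737, 2880.5 and 2853 under DMSO. The order depended on the scale: by normalized reads in place of log2 values, P4HA3, COL16A1 and ASPN were the most similar to PRSS35 and PODN, CPT2 and BGN to ANPEP, so that FAP, ZMYM3 and SERPINF1 were no longer among them.

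The members were then set among 147 genes in 6 lists of proteases, inhibitors and related proteins. Of these, 39 had a name in the paper's sheets and 37 had recovered reads. The reads of SERPINH1 and CTSK could not be recovered, and those of TIMP1, TIMP2, HTRA1, SERPINF1, CTSB and PCOLCE were recovered within a window around the group mean. Of the 37 genes, 31 were lower and 6 were higher in RSV, and the median log2 fold change was −0.80. Among all 1824 named mRNAs with recovered reads, 56.1% were lower in RSV and the median was −0.41, while over all mRNAs tested the median was 0.00. The genes have a name only as differentially expressed mRNAs, so these counts describe directions and were not tested. The 6 genes with higher values in RSV were TIMP1, MMP15, ADAM10, CST3, ECE1 and CPD.

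**Figure D2:**
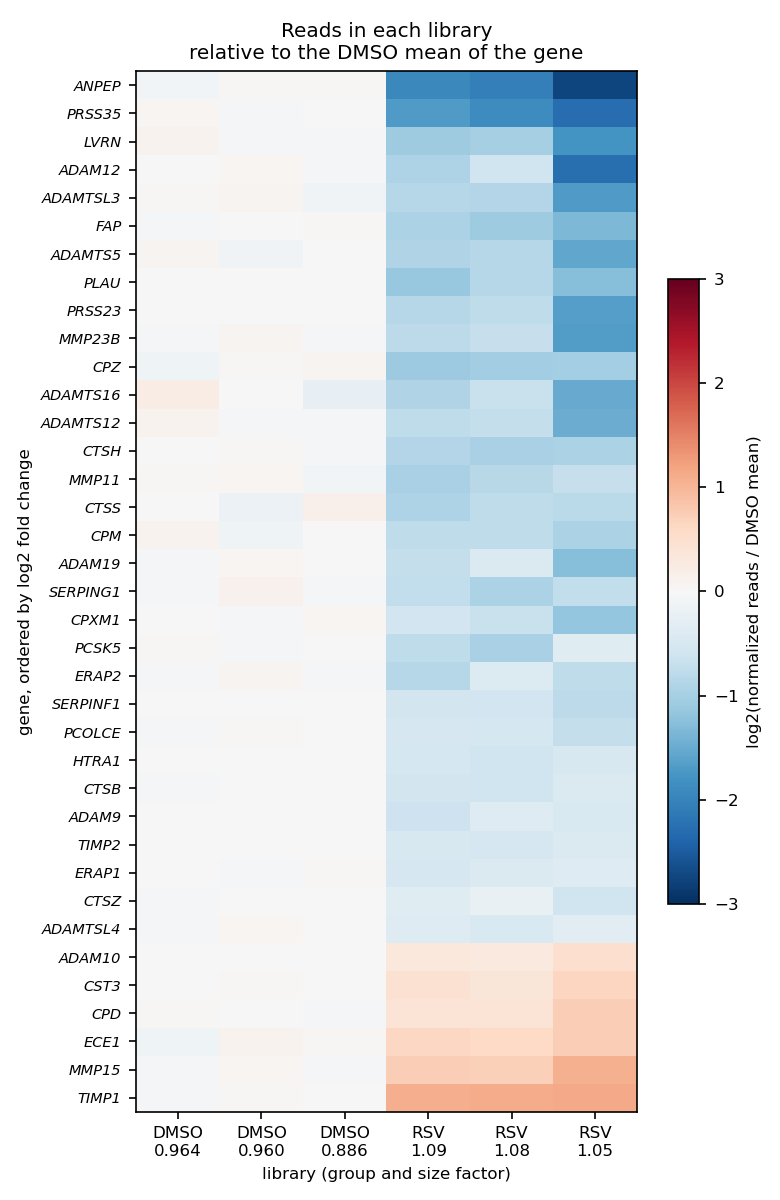
Reads of the 37 named protease, inhibitor and related genes (rows) in each library (columns, with group and size factor). Values are log2 of the normalized reads over the DMSO mean of the gene. Blue cells lie below and red cells above the DMSO mean. The 31 genes from ANPEP down to ADAMTSL4 are blue in all RSV columns and the 6 genes at the foot are red. In the last column ANPEP, PRSS35 and ADAM12 are the darkest blue. The groups did not overlap for any named mRNA, so nothing is read from this separation.

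Of the metalloproteinases and TIMPs, 5 of 28 genes had reads under a name, 3 of them lower and 2 higher in RSV. MMP23B, a metalloproteinase made as a membrane-bound precursor, had 1055, 1126 and 577 normalized reads under RSV and 1794, 1934 and 1758 under DMSO. Its log2 fold change was −1.05 (standard error 0.21). MMP15, a membrane-type metalloproteinase, went against it with 631, 620.2 and 799.7 normalized reads under RSV and 369, 397 and 370.1 under DMSO, a log2 fold change of 0.84 (standard error 0.12). TIMP1 was the other gene with higher values, and MMP11 and TIMP2 were lower.

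In the ADAM and ADAMTS family, which holds membrane-bound shedding enzymes and secreted proteoglycan-cutting enzymes, 9 of 36 genes had reads under a name. Of these 8 were lower and 1 was higher in RSV, with a median log2 fold change of −0.98. ADAM12, a shedding enzyme that has been tied to myoblast fusion, had 2229, 2805 and 877.5 normalized reads under RSV and 4157, 4401 and 4101 under DMSO. Its log2 fold change of −1.26 had the largest standard error of the 37 genes, 0.36. Without library RSV 1.05 it was −0.75. ADAMTSL3, a matrix protein that is related to the ADAMTS enzymes but has no protease domain, had a log2 fold change of −1.13 (standard error 0.20). ADAMTS5, ADAMTS16, ADAMTS12, ADAM19, ADAM9 and ADAMTSL4 were lower as well. ADAM10, which sheds Notch and other surface proteins, was the exception, with 2218, 2151 and 2491 normalized reads under RSV and 1746, 1777 and 1781 under DMSO, a log2 fold change of 0.37 (standard error 0.07).

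Of the secreted serine proteases and serpins, 7 of 36 genes had reads under a name and all 7 were lower in RSV. Besides PRSS35, the largest decreases were those of FAP and PLAU. FAP, a serine protease of the cell surface of fibroblasts, had 1614, 1491 and 1222 normalized reads under RSV and 3078, 3120.2 and 3192 under DMSO, a log2 fold change of −1.13 (standard error 0.10). PLAU, the urokinase that activates plasminogen, had 368, 451 and 334 normalized reads under RSV and 826, 802 and 816 under DMSO, a log2 fold change of −1.09 (standard error 0.10). PRSS23, SERPING1, SERPINF1 and HTRA1 were lower as well. Of these 7 genes PRSS35 had the largest decrease, at a log2 fold change of −1.95 against −1.13 for the next gene. It was chosen with earlier results of these data known, so nothing is read from its place.

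Of the cathepsins and cystatins, 4 proteases were lower and 1 inhibitor was higher in RSV, out of 5 of 18 genes that had reads under a name. CTSH, a lysosomal cysteine protease that acts as an aminopeptidase, had 2969, 2773 and 2853 normalized reads under RSV and 5510.1, 5561 and 5329.7 under DMSO, a log2 fold change of −0.93 (standard error 0.05). CTSS and CTSB had log2 fold changes of −0.82 (standard error 0.15) and −0.53 (standard error 0.05). CTSZ was the other lower gene. CST3, which encodes the secreted cysteine protease inhibitor cystatin C, had 3644, 3395 and 4135 normalized reads under RSV and 2631, 2711 and 2616 under DMSO, a log2 fold change of 0.48 (standard error 0.08).

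Of the aminopeptidases and other membrane peptidases, 9 of 18 genes had reads under a name, 7 of them lower and 2 higher. After ANPEP the largest decreases were those of LVRN, an aminopeptidase related to ANPEP, and CPZ, a secreted carboxypeptidase. LVRN had 194, 204 and 117 normalized reads under RSV and 434, 392 and 387 under DMSO, a log2 fold change of −1.27 (standard error 0.18). CPZ had a log2 fold change of −1.05 (standard error 0.07) with RSV values from 756 to 787, so it did not share the low value of library RSV 1.05. ERAP1, ERAP2, CPM and CPXM1 were lower too. ECE1, the enzyme that makes endothelin, and CPD, a carboxypeptidase of the secretory route, were higher, with log2 fold changes of 0.65 (standard error 0.07) and 0.52 (standard error 0.09). Of the genes for procollagen and proprotein processing, PCSK5 and PCOLCE had reads under a name out of 11 genes, and both were lower with log2 fold changes of −0.70 (standard error 0.13) and −0.58 (standard error 0.06).

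**Figure D3:**
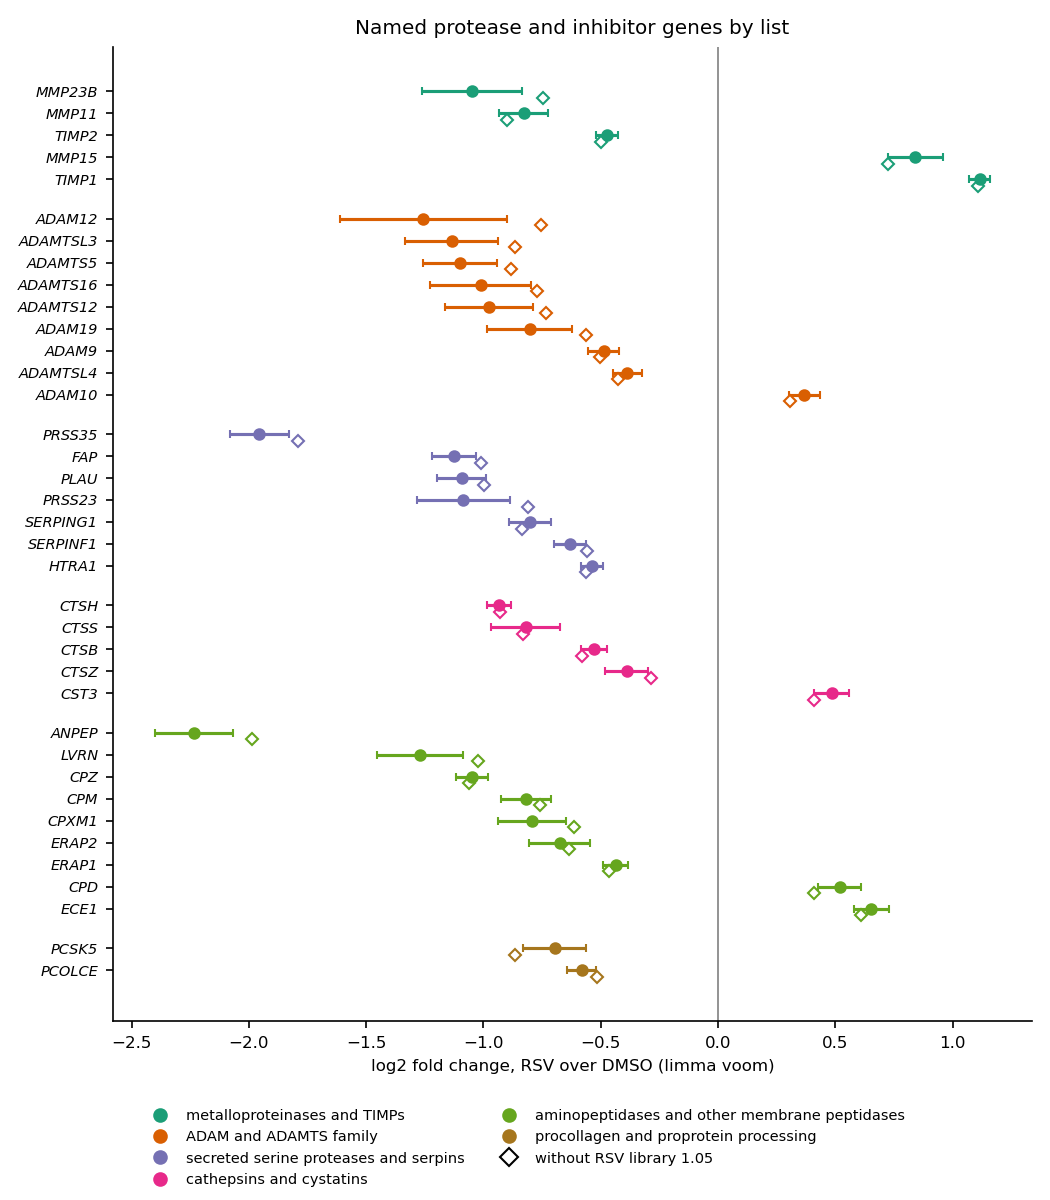
Log2 fold change of RSV over DMSO from limma voom (horizontal axis) for the 37 named protease, inhibitor and related genes, ordered within 6 lists (colors). Filled circles with bars are the estimates ± standard error from 6 libraries, and open diamonds are the estimates without library RSV 1.05. ANPEP at −2.24 and PRSS35 at −1.95 lie furthest to the left, 31 genes lie left of 0 with and without that library, and the diamond of ADAM12 moves furthest, to −0.75.

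Library RSV 1.05 was the lowest RSV library for 18 and the highest for 15 of the 37 genes, so it was not low throughout. Over all mRNAs tested it was the lowest RSV library for 42.4% and the highest for 41.5%. Over the 1824 named mRNAs it was the lowest for 56.2% and the highest for 35%. Relative to the mean of the other RSV libraries, it held 0.708 times the reads of PRSS35, 0.592 times those of ANPEP and 0.631 times those of ADAMTS5. The number of the 37 genes with lower values in RSV was 31 with and without it, and the median log2 fold change was −0.73 without it.

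In these bulk samples, fewer cells of a type and less RNA per cell cannot be told apart. Markers of muscle cells and of fibroblasts were therefore set beside the protease genes. They have a name only as differentially expressed mRNAs, so a marker that did not differ cannot appear in these counts. Of the 1824 named mRNAs 56.1% were lower in RSV, and of all mRNAs tested 49.8%. Of 9 fibroblast markers, 4 had recovered reads under a name (PDGFRA, DCN, LUM and FAP), and all 4 were lower in RSV. Their sum ranged from 40064 to 43597 normalized reads in the RSV libraries and from 64745 to 66566 in the DMSO libraries. The reads of PDGFRA, DCN and LUM were recovered within a window around the group mean, and a value of LUM in RSV lay 18.2% from its mean in a window of 20%. FAP stands in this list and in that of the serine proteases. Of 21 muscle markers, 4 had recovered reads under a name (MYH7, TNNT1, TNNI1 and MYMK), all higher in RSV. They summed to between 10458 and 10913 normalized reads under RSV, and 6781 to 7416 under DMSO. Of 5 markers of smooth muscle cells and pericytes, CSPG4 had recovered reads, from 417 to 735 under RSV and from 1595 to 1655 under DMSO. Of 4 leukocyte markers, CD14 had between 27.7 and 46.5 normalized reads under RSV, and 8.34 to 10.4 under DMSO. The fewest recovered reads of CD14 in a library were 8, for which counting error alone would be 35.4%. Its DMSO mean of 9.25 lay under the minimum of 10, which CD14 passed on the mean of all 6 libraries. No endothelial or adipocyte marker had a name, and DES, MYOD1, MYOG and PAX7 were not analysed here. COL3A1, THY1, MYH3 and ACTA2 had a name but no usable reads, so they are left out of these values. The part of the makeup of the cultures in the levels of PRSS35, ANPEP and the other proteases was not tested.

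**Figure D4:**
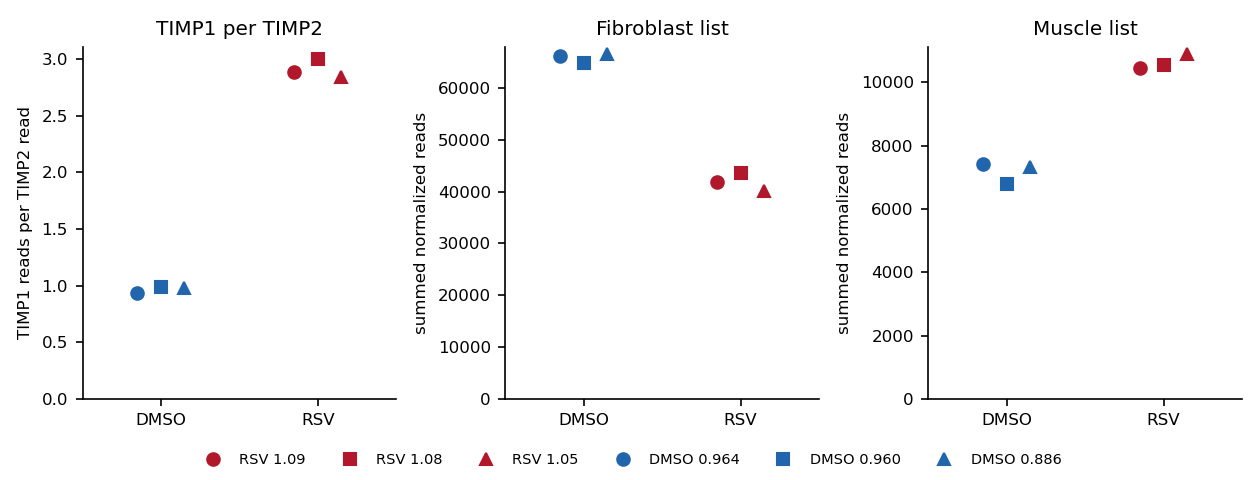
TIMP1 reads per TIMP2 read (left) and summed normalized reads of 4 named fibroblast markers (middle) and 4 named muscle markers (right), each on a vertical axis from 0, in the DMSO (blue) and RSV libraries (red). The TIMP ratio and the muscle sum are higher and the fibroblast sum is lower in all 3 RSV libraries than in any DMSO library.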

How the data were processed

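RNA of 3 RSV and 3 DMSO cultures was sequenced on an Illumina platform. Groups follow the treatment given in the labels. The aligner and counter for mRNA reads are not given in the sources used here. The deposited table holds, for each mRNA and group, the authors' mean read count after each library had been divided by its size factor. It also holds the authors' fold change, P-value, adjusted P-value and call, and a miRNA part, which were not used. No column holds a single sample.

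The decimal points of means of 1 or more were lost in the deposited mRNA values. Size factors were read from the steps of the values under 1 and refined on larger values. Each mean, given with up to 15 digits, was written as a sum of whole reads over size factors, taking the smallest place of the decimal point at which 1 combination was found and fewer than 0.01 were expected by chance. For large means the libraries were required to lie within 2% to 50% of the group mean. Of 20459 mRNAs with reads, 19997 were recovered in the full search, 372 within such a window and 90 not at all (99.6% recovered). The columns number no replicates, so a recovered library could not be assigned to a sample.

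Where the mean reached 10 normalized reads, the recovered reads were fitted by limma voom in R 4.3.3 (limma 3.58.1), and the size factors set the library sizes. The authors compared the groups with DESeq. Other steps used Python 3.11.15, numpy 2.4.6, pandas 2.3.3, numba 0.67.0 and matplotlib 3.10.9, and both the recovery of reads and the fit were tested on simulated data.

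Gene names, and no values, were taken from the paper's sheets, which name 1863 mRNAs, all differentially expressed there. The copy used here is shortened, so other differentially expressed mRNAs have no name. Of the identifiers, 0 matched the RefSeq gene table given, so no positions are given. The members and the lists were chosen with earlier results of these data known. The text names every member with a name, and in each list the 3 genes with the largest absolute log2 fold change and those against its main direction with values. ADAM12 without 1 library and the share of genes for which 1 RSV library was lowest were chosen with the values in view. The ratio of TIMP1 to TIMP2 was not among the planned results.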

Additional observations from a re-analysis of the deposited data

How the results depend on the processing

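PRSS35, ANPEP, TIMP2 and ADAMTS5 stayed lower and TIMP1 higher in RSV under every alternative that gave them a value. No paired analysis was possible because the recovered libraries carry no replicate number, so the planned replicate block was not run. With library sizes set by the sum of recovered reads, the log2 fold change was 1.20 for TIMP1 and −0.39 for TIMP2, the median over all mRNAs moved from 0.00 to 0.08 and the share of calls that were higher in RSV from 48.6% to 64.4%. Of the 37 protease, inhibitor and related genes, 31 were lower in RSV under each alternative that kept all 37. When reads recovered within a window were left out, TIMP1, TIMP2, HTRA1, SERPINF1, CTSB and PCOLCE dropped out. Of the genes that remained, 26 were lower, and the median log2 fold change was −0.82. That alternative was chosen after seeing the data and has no value for TIMP1 and TIMP2.

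Leaving out 1 library at a time gave log2 fold changes from −2.08 to −1.79 for PRSS35, −2.40 to −1.99 for ANPEP, −1.22 to −0.88 for ADAMTS5, 1.10 to 1.14 for TIMP1 and −0.50 to −0.46 for TIMP2. The number of mRNAs called, 5139 with 6 libraries, ranged from 2595 to 6356. It was 2772, 2835 and 2595 without DMSO 0.964, 0.960 and 0.886, and 3606, 5618 and 6356 without RSV 1.09, 1.08 and 1.05 (the cause was not tested). Library quality weights raised it to 7787 (the cause was not tested). By normalized reads in place of log2 values, 1 of the 3 genes most similar to PRSS35 and 1 of the 3 most similar to ANPEP stayed among the 3. Names were at hand for part of the called mRNAs alone, so nothing is shown here of proteases without a name, whether or not their mRNA differed.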
